A study of Mus musculus with 3 samples.

Results

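The 7 genes described here are *Mitf*, the transcription factor of the pigment cell lineage, and 6 genes whose products build or fill the melanosome: *Pmel*, *Dct*, *Tyr*, *Tyrp1*, *Mlana* and *Slc45a2*. They were taken by name, and all 7 of them were found among the 19165 genes of the deposited table. Droplet-based 3′ single-cell RNA sequencing was run on back skin of male C57BL/6 mice from 3 stages, the embryonic days E13.5 and E16.5 and the day of birth, P0. Each stage is 1 library from the skin of pooled animals with no further allele or treatment, so differences between stages cannot be set against replicates and are given without a test. Embryonic skin was digested with trypsin and P0 skin with collagenase IV, and the stage, the digestion and the library cannot be told apart. The table holds 5962 cells of E13.5 skin, 5208 of E16.5 skin and 5065 of P0 skin, with a median of 7066.5, 11021 and 6797 unique molecular identifiers (UMIs, 1 per captured transcript) per cell.

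Melanocytes arise from the neural crest, reach the skin as melanoblasts and move into the epidermis and the growing hair follicle. MITF, a basic helix-loop-helix factor, binds E-box sequences in the promoters of pigment genes and is needed for melanoblasts to survive. Melanin is made inside the melanosome, an organelle of the lysosome family. TYR (tyrosinase) carries out the rate-limiting oxidation of tyrosine, DCT (dopachrome tautomerase) and TYRP1 act on later intermediates of eumelanin, PMEL forms the fibrils on which pigment is laid down, MLANA assists PMEL, and SLC45A2 is a transporter needed for melanosome function.

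In the mouse genome (GRCm38, GENCODE vM21) all 7 are protein-coding genes on 7 chromosomes. *Mitf* lies at chr6:97807052-98021349 on the plus strand and spans 214298 bases, *Tyr* at chr7:87424771-87493512 on the minus strand and *Tyrp1* at chr4:80834123-80851719 on the plus strand. *Dct* lies at chr14:118012790-118052244 on the minus strand, *Pmel* at chr10:128704195-128720238, *Mlana* at chr19:29697824-29708634 and *Slc45a2* at chr15:11000721-11029233, the last 3 genes on the plus strand. *Pmel* overlaps *Cdk2* and *Dgka*, *Mitf* overlaps *Gm15531* and *Dct* overlaps *4930435M08Rik*, in each case on the opposite strand.

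Promoter windows of 250 bases before the start of transcription were read for 4 of the 7 genes from RefSeq (GRCm38.p6). They were *Mitf*, with 3 starts, *Tyr*, *Tyrp1* and *Dct*. The longest run of letters around the E-box CATGTG that *Tyr*, *Tyrp1* and *Dct* share was GTCATGTGCT, which lies within the M-box, an extended E-box of the tyrosinase family. It was taken from these promoters, so its presence in them is no finding, and 51 of 32851 promoters of the table held it (0.155%, both strands searched). CATGTG alone occurred in 12.3% of promoters, and the palindromic E-box CACGTG, found in none of the 6 windows, in 6.02%. The cAMP response element TGACGTCA occurred in 1.55% of promoters and in the window of 1 of the 3 *Mitf* starts. The sites are shown because they set the tyrosinase-family genes side by side on their coding strands, 5′ to 3′, with the motif in capitals and 10 bases on each side.

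Tyr site, chr7:87493516-87493545, minus strand: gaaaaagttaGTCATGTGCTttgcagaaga
Tyrp1 site, chr4:80834155-80834184, plus strand: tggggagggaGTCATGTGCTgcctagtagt
Dct site, chr14:118052379-118052408, minus strand: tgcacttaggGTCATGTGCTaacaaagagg
Mitf site, chr6:97991620-97991647, plus strand: aaaaaaagcaTGACGTCAagccagcagg

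The motif begins 23 bases before the RefSeq start of *Tyr*, 48 before that of *Tyrp1* and 152 before that of *Dct*. 1 GENCODE transcript of *Tyrp1* starts upstream of its site, at the gene start given above. The whole windows of *Tyr* and *Dct* follow, since both genes were detected at every stage and their UMI ratio differed between stages. Capitals mark the shared run and, in *Dct*, also a second CATGTG on the other strand, 232 bases before the start. A match is a description of the sequence, and binding was not measured.

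Tyr promoter, chr7:87493513-87493762, minus strand: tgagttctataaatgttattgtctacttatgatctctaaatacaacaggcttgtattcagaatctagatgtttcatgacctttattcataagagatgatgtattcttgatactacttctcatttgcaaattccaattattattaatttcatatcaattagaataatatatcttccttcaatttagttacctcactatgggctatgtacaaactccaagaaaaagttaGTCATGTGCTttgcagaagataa
Dct promoter, chr14:118052247-118052496, minus strand: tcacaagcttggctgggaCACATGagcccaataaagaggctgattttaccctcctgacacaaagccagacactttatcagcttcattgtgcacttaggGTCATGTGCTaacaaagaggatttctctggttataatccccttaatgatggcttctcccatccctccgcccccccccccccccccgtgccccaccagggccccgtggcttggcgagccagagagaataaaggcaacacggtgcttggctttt

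Over whole libraries, each of the 7 genes had its highest level at P0, and *Tyrp1* was the gene that appeared last. In order of stage, *Pmel* stood at 16.54, 29.4 and 179 UMIs per 1000000 UMIs (CPM) and *Dct* at 17.3, 26.4 and 169.8 CPM. *Mlana* stood at 3.94, 6.70 and 45.9 CPM. *Mitf* changed less, from 5.53 over 7.84 to 15.1 CPM, and *Tyr* from 2.36 over 2.96 to 6.72 CPM. *Slc45a2* was at 1.52, 2.19 and 7.32 CPM. No UMI of *Tyrp1* was counted among 53334740 UMIs at E13.5, which allows up to 0.0562 CPM (3 counts), against 0.347 CPM in the E16.5 library and 17.7 CPM in that of P0. These totals join how many pigment cells a library holds with how much each contains, and both are given separately for pigment cells.

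Cells with UMIs of at least 3 of the 7 genes are called pigment cells here. At E13.5 they numbered 59, which is 0.990% of the library (95% exact binomial interval 0.754 to 1.27%). The E16.5 library held 56 of them, or 1.08% (0.813 to 1.39%), and the P0 library 124, or 2.45% (2.04 to 2.91%). The share at P0 lay above the intervals of both embryonic stages, while those of E13.5 and E16.5 overlapped. With every cell thinned to 3500 UMIs the shares were 0.704%, 0.999% and 2.15%, and 1 shallower cell of E16.5 did not enter. All intervals in this text cover counting error only, neither the spread between cells nor that between animals. Of the 239 pigment cells, 4 carried a barcode that is also present in another library.

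**Figure D1:**
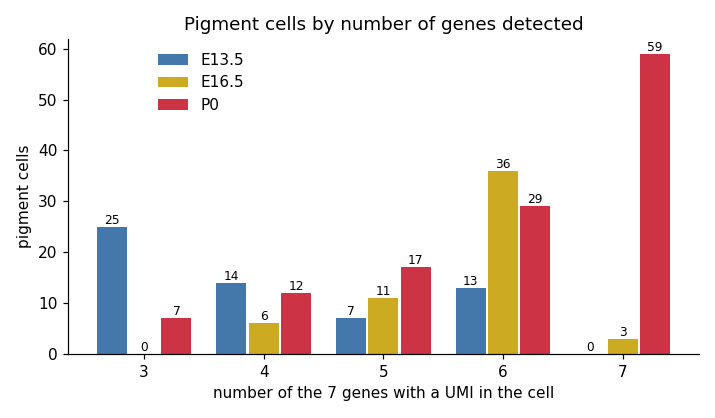
Number of pigment cells (vertical axis) by how many of the 7 genes had a UMI in the cell (horizontal axis), with 1 bar per stage and the count above it. E13.5 cells gather at 3 and 4 genes, E16.5 cells at 6 genes (36 of 56) and P0 cells at 7 genes (59 of 124).

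How completely a cell showed the set differed between stages. At E13.5, 39 pigment cells had 3 or 4 of the genes and 20 had 5 or more, and none had all 7. At E16.5, 6 cells had 4, none had exactly 3, and 50 had 5 or more. At P0, 105 cells had 5 or more and 59 had all 7. The most frequent combination at E16.5, and among the E13.5 cells with 6 genes, was the full set without *Tyrp1*, seen in 13 cells at E13.5 and 36 cells at E16.5, while at P0 it was all 7 genes.

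The E13.5 cells differed in how much of the set they held and in depth. Those with 3 genes had a median depth of 5339 UMIs and those with 6 had 15351. Those with 3 genes held a median of 5 UMIs of the set and those with 4 held 7.5, while the 13 cells with 6 genes held a median of 66. *Sox10*, the neural crest factor that acts upstream of *Mitf*, had a UMI in 5 of the 25 cells with 3 genes, in 4 of the 14 with 4, and in all 13 with 6. The 10 melanocyte markers that were not used to choose the cells summed to 519 CPM in cells with 3 or 4 genes and 2214 CPM in those with more, against 143 CPM in other cells of the library. Hemoglobin and other red cell genes summed to 38977 CPM in the former and 5966 CPM in the latter. The part that depth and red cell RNA have in those values was not tested.

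When the cells of each library were clustered without the 7 genes, most pigment cells came together at the later stages, and those of E13.5 were spread over several classes. At E16.5, 53 of 56 lay in 1 cluster, and all 53 cells of that cluster were pigment cells. At P0, 103 of 124 did, again all cells of their cluster, beside 12 in epithelial-like clusters with a median of 3.5 UMIs of the set. Both clusters are called melanocyte-like because *Sox10*, *Kit*, *Ednrb*, *Trpm1* and other markers outside the set defined them. At E13.5, 26 of 59 pigment cells lay in a cluster of 208 Schwann-like cells, 10 in erythroid-like, 8 in epithelial-like, 5 in macrophage-like, 4 in dermal-like and 3 in mast-like clusters. The 26 cells in the Schwann-like cluster carried 1517 of the 1952 UMIs of the set in E13.5 pigment cells. Where the E13.5 cells lie depended on the clustering. At resolution 0.5, 11 of the 59 formed a melanocyte-like cluster of 11 cells, and at resolution 2, 31 lay in a cluster of 166 cells led by *Dct*, *Pmel* and *Gpnmb*, which the naming rule left unnamed. At both of these settings the Schwann-like cells of E13.5 held no pigment cell, of 126 and of 82. The Schwann-like cells of E16.5 held none of 110 and those of P0 held 1 of 99.

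**Figure D2:**
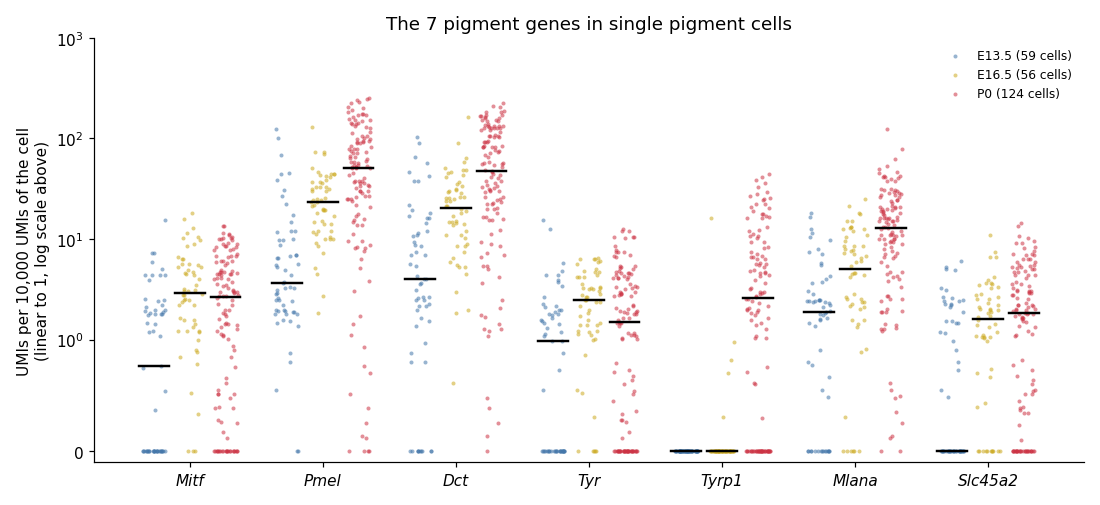
UMIs of each gene per 10000 UMIs of the cell (vertical axis, linear to 1 and log above) in every pigment cell, with 1 point per cell, stages side by side in colour and a black bar at the median. The medians of *Pmel*, *Dct* and *Mlana* stand in stage order, those of *Mitf* at E16.5 and P0 nearly level, and *Tyrp1* has a median above 0 at P0 alone.

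The structural protein *Pmel* and the tautomerase *Dct* were the most abundant of the 7 at every stage and nearly equal in UMIs. Per pigment cell of E13.5, *Pmel* ran from 0 to 104 UMIs with a median of 3. Its range was 5 to 136 with a median of 25 at E16.5, and 0 to 354 with a median of 53.5 at birth. Over the same stages *Dct* ran from 0 to 87 (median 3), from 1 to 172 (median 23) and from 0 to 201 (median 57.5). Every pigment cell of E16.5 had UMIs of both genes. Summed over pigment cells, *Pmel* stood at 1353 CPM (exact Poisson interval 1257 to 1454), 2432 CPM (2321 to 2548) and 3658 CPM (3578 to 3739). *Dct* stood at 1453, 2279 and 3464 CPM, 1.57-fold higher at E16.5 than at E13.5 (1.44 to 1.71) and 1.52-fold higher at P0 than at E16.5 (1.44 to 1.604). In cells chosen by the other 6 genes, the first of these folds was 1.19 (1.09 to 1.30) for *Dct* and 1.33 (1.21 to 1.45) for *Pmel*, which was 1.80 (1.65 to 1.96) over all pigment cells. The fold of all 7 genes together was 1.69 (1.603 to 1.78) for the first step and 1.47 (1.43 to 1.52) for the second, from 3582 over 6057 to 8920 CPM. How large that second step is depends on how cells enter the sum: it was 1.27 on the log2 scale with each cell weighted alike, against 0.56 for the sum of UMIs, and 0.04 among cells with at least 2500 genes. The first step was 0.76 on that scale, but 0.26 among cells with at least 4 of the genes. The sums over all P0 pigment cells include deep cells with keratin RNA, described further on. In the melanocyte-like cells of E16.5 and the larger group of P0 melanocyte-like cells, *Pmel* stood at 2726 and 9773 CPM. *Dct* stood there at 2539 and 9650 CPM, so the difference was larger than in the sums over all pigment cells.

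*Mlana* followed the same course. Its UMIs were seen in 74.6%, 89.3% and 98.4% of the pigment cells of the 3 stages, with medians of 1, 6 and 13 UMIs per cell. Its level was 308 CPM (263 to 359), 565 CPM (512 to 622) and 937 CPM (897 to 978). In the melanocyte-like cells of E16.5 and the larger P0 group it stood at 635 and 2379 CPM.

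*Tyrp1* was the late gene of the set. It had no UMI in any of the 59 pigment cells of E13.5, which allows a share of up to 5.08% and a level of up to 5.51 CPM. At E16.5 it was seen in 5 of 56 cells with 21 UMIs in all, of which 17 lay in a single melanocyte-like cell that also held 136 *Pmel* and 172 *Dct* UMIs, the highest sum of the set at that stage (362). The other 4 cells had 1 UMI each. At P0 it was seen in 87 of 124 cells (70.2%) with 786 UMIs, a median of 4 and a highest value of 61. The level at P0, 362 CPM (337 to 388), was 12.7-fold that of E16.5 (8.23 to 20.6) and at least 65.8-fold higher than at E13.5, computed against 3 counts over the group. Without the highest cell of each stage the difference between P0 and E16.5 was 5.93 on the log2 scale, against 3.66 with it.

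*Mitf* and *Tyr*, the factor and the rate-limiting enzyme, had their highest level at E16.5 when UMIs were summed over all pigment cells. Per pigment cell *Mitf* ran from 0 to 13 UMIs (median 1), then from 0 to 22 (median 3) and from 0 to 18 (median 3), so the ranges of the 3 stages overlapped widely. It had a UMI in 55.9%, 94.6% and 82.3% of the cells. Its level was 180 CPM (146 to 219), 347 CPM (306 to 392) and 208 CPM (189 to 228). *Tyr* stood at 171 CPM (138 to 209), 231 CPM (198 to 269) and 140 CPM (124 to 156), with medians of 1, 3 and 2 UMIs per cell. Its intervals at E13.5 and E16.5 overlapped, and among cells with at least 4 of the genes it was not higher at E16.5 (a log2 difference of -0.0857). The transporter *Slc45a2* stood at 117 CPM (90.5 to 150), 174 CPM (145 to 207) and 151 CPM (135 to 168), and its interval at P0 overlapped that at E16.5. In the melanocyte-like cells of E16.5 alone it stood at 197 CPM (164 to 235). In the larger group of P0 melanocyte-like cells, described further on, it was higher, at 407 CPM (358 to 461).

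The lower *Mitf* and *Tyr* levels at P0 did not hold in each way of counting. From E16.5 to P0 *Mitf* differed by -0.74 on the log2 scale in summed UMIs (interval -0.96 to -0.51), by -0.27 with each cell weighted alike and by -0.15 (-0.54 to 0.25) in cells thinned to 3500 UMIs. *Tyr* differed by -0.73, by -0.10 and, after thinning, by 0.13. Deep P0 cells with keratin RNA weigh on these sums, as described further on. The larger group of P0 melanocyte-like cells described there held *Mitf* at 520 CPM (464 to 581) and *Tyr* at 350 CPM (304 to 400). The melanocyte-like cells of E16.5 held 393 CPM (346 to 445) and 260 CPM (222 to 302), so both genes were higher in that P0 group. Ratios between genes of the same cells are not diluted by foreign RNA that lacks both genes, and they are given next.

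**Figure D3:**
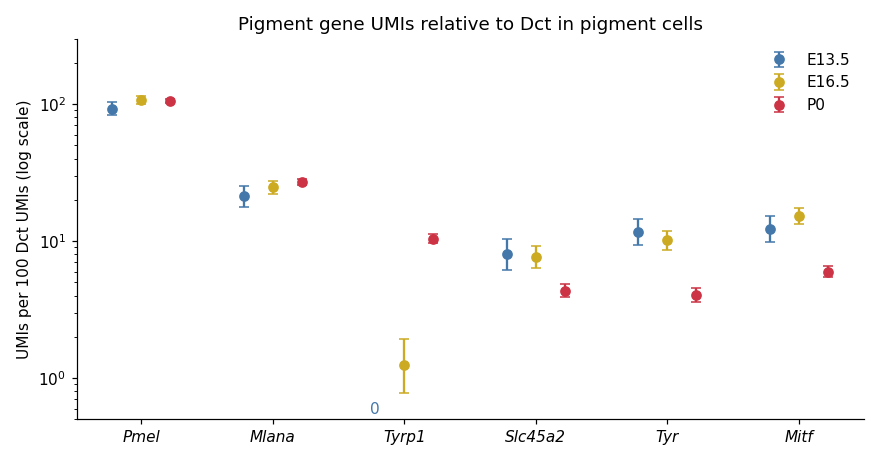
UMIs of 6 genes per 100 *Dct* UMIs in pigment cells (vertical axis, log scale) by stage, with 95% exact intervals of counting error, and a 0 where *Tyrp1* had no UMI. *Pmel* and *Mlana* differ least between stages, *Tyrp1* is far higher at P0, and *Slc45a2*, *Tyr* and *Mitf* are lower at P0 than at both embryonic stages.

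Set against *Dct*, *Pmel* and *Mlana* differed least between stages. In order of stage *Pmel* made 93.1, 107 and 106 UMIs per 100 *Dct* UMIs, and the P0 ratio was 0.989 of the E16.5 ratio (0.918 to 1.07). In single cells with at least 20 UMIs of the pair, *Pmel* held a median of 50.7% in 11 cells of E13.5, 50% in 49 of E16.5 and 50% in 111 of P0. *Mlana* made 21.2, 24.8 and 27.0 UMIs per 100 *Dct* UMIs, and the interval of its ratio between P0 and E16.5 (0.968 to 1.23) included 1, while that between P0 and E13.5 (1.07 to 1.53) did not.

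Per 100 *Dct* UMIs, *Mitf* made 12.4 UMIs in E13.5 pigment cells (9.93 to 15.3), 15.2 in those of E16.5 (13.3 to 17.4) and 6.00 in those of P0 (5.44 to 6.60). That is 2.54-fold less at P0 than at E16.5 (2.15 to 2.99). *Tyr* made 11.7, 10.2 and 4.03 UMIs, 2.52-fold less at P0 than at E16.5 (2.06 to 3.07). *Slc45a2* made 8.08, 7.65 and 4.36, 1.75-fold less (1.41 to 2.17). *Tyrp1* made 1.25 at E16.5 and 10.5 at P0, 8.34-fold more (5.39 to 13.6). Between E13.5 and E16.5 the intervals of the ratio folds of *Mitf*, *Tyr*, *Mlana* and *Slc45a2* to *Dct* all included 1, and that of *Pmel* ran from 1.02 to 1.30. The directions of the *Mitf*, *Tyr* and *Tyrp1* ratios between E16.5 and P0 held in each alternative that was run, with log2 values from -1.67 to -1.06 for *Mitf*, -1.48 to -1.16 for *Tyr* and 2.07 to 5.22 for *Tyrp1*.

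Set against *Mitf*, *Tyr* had nearly the same proportion at E16.5 and P0. *Tyr* made 66.7 UMIs per 100 *Mitf* UMIs at E16.5 (54.6 to 81.3) and 67.2 at P0 (57.9 to 77.9), a ratio of 1.01 between stages (0.785 to 1.29). *Sox10* made 70.2 and 70.3 UMIs per 100 *Mitf* UMIs, a ratio of 1.001 (0.783 to 1.28). By contrast *Pmel* made 701 UMIs per 100 *Mitf* UMIs at E16.5 and 1760 at P0, *Dct* 656 and 1667, *Mlana* 163 and 451, and *Tyrp1* 8.24 and 174. *Slc45a2* lay between them, with 50.2 and 72.7, 1.45-fold more at P0 (1.11 to 1.89). At E13.5 *Tyr* made 94.9 UMIs per 100 *Mitf* UMIs (70.7 to 127), and the interval of its ratio between E16.5 and E13.5 (0.491 to 1.01) included 1.

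The 103 P0 melanocyte-like cells of the main clustering came in 2 groups at the finer clustering (resolution 2), again made without the 7 genes. At that finer clustering the naming rule called only the larger group melanocyte-like. The larger held 73 cells with a median depth of 6882 UMIs, and the smaller 30 cells with a median depth of 25655 UMIs, against 6763 in P0 cells that were not pigment cells. *Krt14*, a keratin of basal epidermis, stood at 177 CPM in the larger group and 2071 CPM in the smaller, 11.7-fold higher (9.62 to 14.3), and it was seen in 30 of the 30 cells of the smaller group. The 7 genes summed to 24102 CPM in the larger group and 4614 CPM in the smaller, a 5.22-fold difference (5.04 to 5.41). All 7 genes were higher in the larger group: *Pmel* 4.90-fold, *Dct* 6.10-fold, *Mlana* 4.04-fold, *Tyrp1* 6.47-fold, *Slc45a2* 5.40-fold, *Mitf* 4.31-fold (3.43 to 5.44) and *Tyr* 3.79-fold (2.91 to 4.99). So were genes of the lineage outside the set, with *Sox10* 4.23-fold, *Ednrb* 6.02-fold and *Trpm1* 5.61-fold higher. The 12 genes of dividing cells summed to 1685 and 1360 CPM. The 30 deep cells may be droplets that held a keratinocyte beside the pigment cell, which was not tested, and the lower level of the 7 genes in them can then not be read as that of single melanocytes. The doublet caller marked 1 of these 30 cells and 1 of the 73. Without the 30 cells the *Mitf* ratio to *Dct* was 2.70-fold lower at P0 than at E16.5 (2.26 to 3.21), and *Tyr* made 64.6 UMIs per 100 *Mitf* UMIs.

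**Figure D4:**
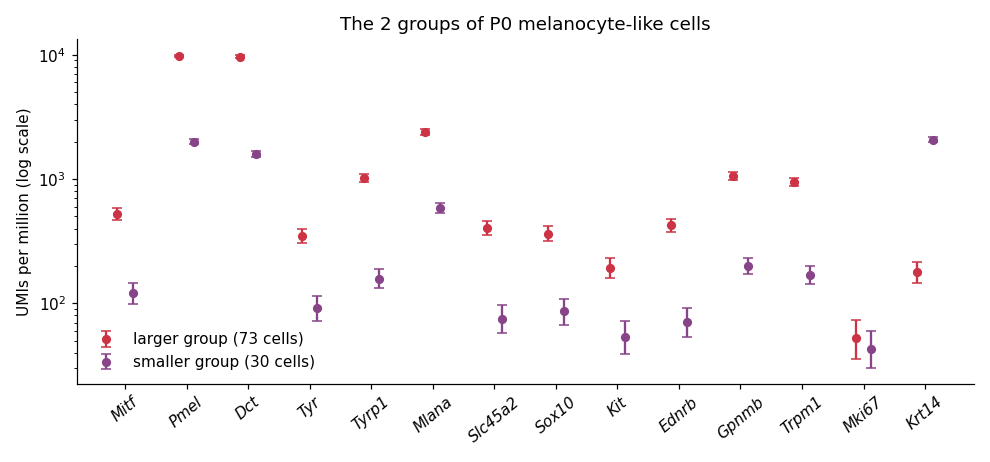
Level in CPM (vertical axis, log scale) of the 7 genes, lineage genes, *Mki67* and *Krt14* in the 73 and the 30 P0 cells named melanocyte-like in the main clustering, with exact Poisson intervals. All 7 pigment genes lie about 4- to 6-fold lower in the smaller group, *Mki67* overlaps, and *Krt14* lies 11.7-fold higher.

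A larger share of *Mitf* than of the other genes lay outside the pigment cells. Pigment cells held 33.2%, 49.1% and 64.2% of the *Mitf* UMIs of their library, in order of stage. For *Pmel* the shares were 83.6%, 91.8% and 95.4%, for *Dct* 85.9%, 95.8% and 95.0%, and for *Tyr* 73.8%, 86.7% and 96.8%. These shares depend on how pigment cells were chosen. In the remaining cells *Mitf* made 152, 357 and 64.0 UMIs per 100 *Dct* UMIs, far more than in pigment cells. Some of the other genes departed from their pigment-cell ratios too at the embryonic stages. At E16.5 *Pmel* made 216 (163 to 289) in the remaining cells against 107, *Tyr* 35.1 against 10.2 and *Slc45a2* 23.0 against 7.65, and at E13.5 *Tyr* made 25.4 against 11.7. *Pmel*, *Mlana* and *Tyrp1* made 97.5, 27.4 and 10.4 UMIs per 100 *Dct* UMIs in the remaining cells of P0, against 106, 27.0 and 10.5 in its pigment cells.

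**Figure D5:**
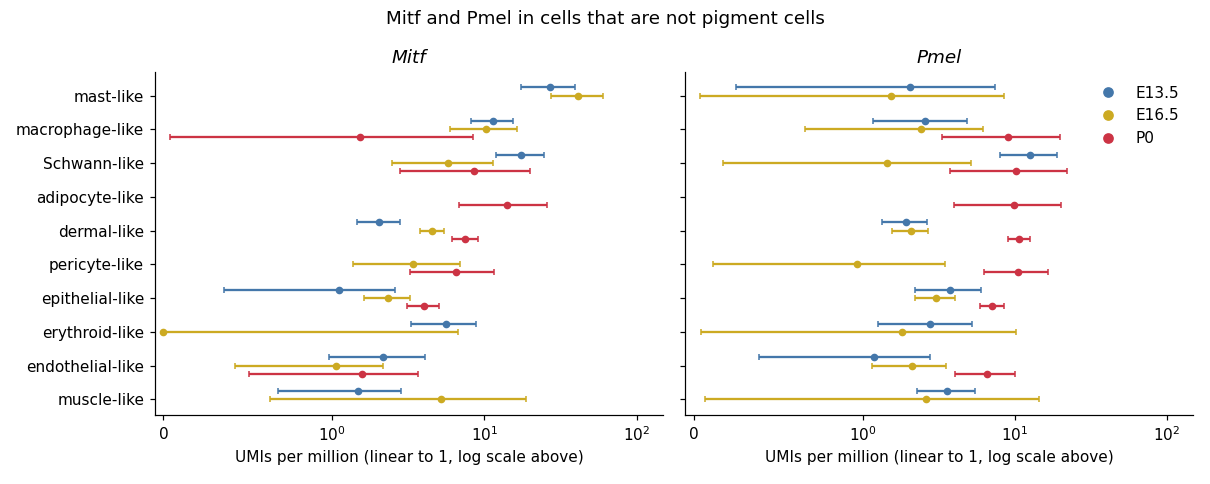
Level of *Mitf* (left) and *Pmel* (right) in CPM (horizontal axis, linear to 1 and log above) in cells that are not pigment cells, by class (vertical axis) and stage, with exact Poisson intervals. *Mitf* is highest in mast-like cells of the embryo, while *Pmel* at P0 lies between 6.59 and 10.7 CPM in every class shown.

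MITF is also known as a factor of mast cells and of the macrophage-osteoclast lineage. The highest *Mitf* level outside pigment cells was that of mast-like cells, 26.8 CPM at E13.5 (17.5 to 39.3) and 41.5 CPM at E16.5 (27.4 to 60.4). It was seen in 19.4% of mast-like cells at E16.5, at a median depth of 7633.5 UMIs, against 1.71% of endothelial-like cells at 16540 UMIs. At P0 no cluster was named mast-like. *Pmel* stood at 2.06 CPM in mast-like cells of E13.5 and 1.54 CPM in those of E16.5. Schwann-like cells followed at E13.5 with 17.5 CPM (12.0 to 24.7), and their interval overlapped that of mast-like cells. In these Schwann-like cells *Pmel* stood at 12.6 CPM (7.98 to 18.9) and *Dct* at 8.75 CPM (5.00 to 14.2), so other pigment genes were present beside *Mitf*. They are the 182 cells left of the cluster that held 26 pigment cells, and *Pmel* was seen in 14 of them and *Dct* in 7. At resolutions 0.5 and 2 the Schwann-like cells held no pigment cell, and *Mitf* was not read there. Whether these UMIs lie in pigment lineage cells with fewer than 3 of the genes was not tested. Macrophage-like cells held *Mitf* at 11.4 CPM at E13.5 (8.12 to 15.5) and 10.2 CPM at E16.5 (5.97 to 16.4), but 1.52 CPM at P0, where 1 UMI was counted in 65 cells (0.0384 to 8.45).

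In the most numerous class, the dermal-like cells, *Mitf* stood at 2.04 CPM (1.44 to 2.80), 4.54 CPM (3.76 to 5.44) and 7.49 CPM (6.13 to 9.06) in order of stage, and the 3 intervals did not overlap. In endothelial-like cells it stood at 2.14 CPM (0.979 to 4.06), 1.05 CPM (0.422 to 2.16) and 1.57 CPM (0.509 to 3.66), so the dermal-like level lay within counting error of that class at E13.5 and above it at the later stages. At P0 *Mitf* was seen in 4.62% of dermal-like cells (median depth 5890) and 1.88% of endothelial-like cells (median depth 9708.5). With cells thinned to 3500 UMIs the shares were 3.12% and 0.752%. *Pmel* was seen in 6.47% and 7.52% of the same cells, and in 3.53% and 1.88% after thinning, so it too was seen in more dermal-like cells at equal depth. What part free RNA has in these low shares was not tested. Among P0 classes *Mitf* ran from 14.1 CPM in adipocyte-like cells (6.76 to 25.9) over 8.52 in Schwann-like, 7.49 in dermal-like, 6.45 in pericyte-like and 3.99 in epithelial-like cells to 1.57 in endothelial-like and 1.52 in macrophage-like cells. Each neighbour in this order overlapped the next.

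Other genes of the pigment pathway were counted by lists that name their roles, with a log2 difference of at least 1 as the mark, 10 CPM added and at least 20 UMIs required. A gene rare in other cells was tested only where the pigment cells themselves brought it to that minimum. Its passing against other cells was then nearly set in advance, so those list counts and medians are a description. Of the 7 genes, *Tyrp1* alone was higher by this mark from E13.5 to E16.5, where 3.32% of all genes tested were higher and 4.41% lower. That call rests on 1 cell, which held 17 of the 21 UMIs, and the remaining 4 UMIs are under the minimum. Over all pigment cells it was also the only 1 of the 7 that was higher from E16.5 to P0, where 4.24% of all genes were higher and 5.02% lower. Without the 30 keratin-rich P0 cells *Dct* and *Mlana*, each 2.04-fold higher, passed the mark too. Between the melanocyte-like cells of E16.5 and the larger P0 group, *Pmel*, *Dct*, *Mlana* and *Slc45a2* passed beside *Tyrp1*. From E13.5 to P0, *Tyrp1*, *Pmel*, *Dct* and *Mlana* were higher, 4 of 7, against 6.22% of all genes, and none was lower, against 8.88%. In pigment cells against other cells, 2.17% of all genes tested were higher at E13.5 (2.06% lower), 4.51% were at E16.5 (8.19% lower) and 1.54% were at P0 (6.12% lower). In the list of 12 melanosome proteins and channels, 4 of 5 tested genes passed at E13.5 (*Slc24a5*, *Trpm1*, *Gpnmb* and *Mcoln3*), 6 of 7 at E16.5, with *Gpr143* and *Mc1r* added, and 7 of 9 at P0, with *Oca2* added. The list's median log2 difference was 3.56, 3.58 and 2.36, against 0.02, 0.05 and -0.01 over all genes tested. *Trpm1*, a cation channel gene whose transcript is a classic MITF target, was 169.5-fold, 133-fold and 70.3-fold higher in pigment cells of the 3 stages, with 63 UMIs in those of E13.5. *Oca2*, a melanosomal anion transporter, had no UMI in pigment cells of E13.5 and E16.5 and 31 UMIs in those of P0 (14.3 CPM).

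Genes that sort cargo to melanosomes differed little. In this list of BLOC, AP-3 and related Hermansky-Pudlak genes, 1 of 8 tested passed at E13.5 (*Rab38*), 0 of 9 at E16.5 and 1 of 16 at P0 (*Dtnbp1*), with list medians of 0.51, 0.23 and 0.29. Of the 6 melanosome transport genes listed, those that passed were *Mlph* and *Myo5a* (2 of 2 tested) at E13.5, *Rab27a* and *Myo5a* (2 of 2) at E16.5, and all 3 of these among 4 tested at P0. None of the 12 genes of dividing cells passed at any stage, and their medians were 0.27, 0.26 and 0.21. *Cdk2*, listed as an MITF target, was 3.28-fold, 5.55-fold and 6.53-fold higher in pigment cells, but it overlaps *Pmel* on the opposite strand. With *Ednrb* it was 1 of 2 higher genes among the other known MITF targets, of 8 tested at both embryonic stages and 10 at P0, and *Cdkn1a* was lower at E13.5. Of the MiT family relatives of *Mitf*, 2 were tested, both at P0, and *Tfeb* was higher.

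Upstream of *Mitf*, 4 of 9 tested regulators were higher in pigment cells at E13.5 (*Sox10*, *Pax3*, *Tfap2a* and *Ets1*), 6 of 10 at E16.5, with *Tfap2b* and *Foxd3*, and 4 of 11 at P0. At P0 *Zeb2* was lower. *Sox10* and *Pax3*, which together drive the *Mitf* promoter, were 11.9-fold and 15.3-fold higher in pigment cells of E13.5, 33.8-fold and 126-fold in those of E16.5, and 23.9-fold and 66.0-fold in those of P0. Of the receptors, *Kit*, *Ednrb* and *Erbb3* passed at E13.5 (3 of 4), the same 3 genes and *Mc1r* at E16.5 (4 of 5), and *Kit*, *Ednrb* and *Mc1r* at P0 (3 of 7), with *Fgfr1* lower at the last 2 stages. KIT and EDNRB take up the survival signals of melanoblasts, and MC1R is the melanocortin receptor that favours eumelanin.

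Between E16.5 and P0, summed over all pigment cells, several regulators and receptors were lower. The melanosome genes *Oca2* and *Gpnmb* were higher. *Mcoln3* was 2.13-fold lower, but 1.64-fold lower without the 30 keratin-rich cells, which is under the mark. Of the regulators, 5 of 11 were lower (*Pax3*, *Lef1*, *Zeb2*, *Ets1* and *Foxd3*), against 5.02% of all genes tested. *Sox9* was higher, as were 4.24% of all genes. Of the lower regulators, only *Pax3* was also read without the 30 keratin-rich cells, so the count holds for all pigment cells together. *Pax3* stood at 407 CPM in E16.5 pigment cells and 126 CPM in those of P0, 3.22-fold lower, and still 2.67-fold lower without the 30 keratin-rich cells. *Kit* stood at 252 and 80.2 CPM, 3.14-fold lower (2.60-fold without them), and *Ednrb* at 358 and 153 CPM, 2.34-fold lower (1.75-fold without them). The cells left after that step still include 12 pigment cells of epithelial-like clusters. In the melanocyte-like cells of E16.5 and the larger P0 group alone, *Ednrb* was not lower at P0, with 399 and 425 CPM. *Kit* stood there at 283 and 192 CPM, lower at P0 but under the mark. *Gpnmb*, a melanosomal glycoprotein related to PMEL, was higher at P0 (388 against 139 CPM), and *Trpm1* stood at 339 against 181 CPM. Relative to *Mitf*, *Pax3* made 117 UMIs per 100 *Mitf* UMIs at E16.5 and 60.8 at P0, and *Kit* 72.5 and 38.6, so both were lower even against *Mitf*. *Sox9*, 194 CPM at P0 against 5.44 CPM at E16.5, moved with keratin genes: *Krt14* stood at 1414 against 530 CPM in pigment cells. The whole list of 10 epithelial markers summed to 422, 1791 and 6768 CPM in pigment cells in order of stage, with all 10 markers seen at each stage, and to 591, 3736 and 9070 CPM in other cells. Its part in the difference between stages was not tested.

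Of the tested receptors 2 of 7 were lower at P0 than at E16.5 over all pigment cells (*Kit* and *Ednrb*, with the limits given above for both) and *Lgr5* was higher. Of the genes of dividing cells 2 of 12 were lower, *Mki67* and *Top2a*, against 5.02% of all genes, with *Mki67* at 112 and 45.6 CPM. In the melanocyte-like cells of E16.5 and the larger P0 group the 12 genes summed to 1844 and 1685 CPM. The list was mixed there: *Mki67* was lower at P0 (102 and 52.5 CPM) and *Ccnb2* higher (121 and 248 CPM). From E13.5 to E16.5, 3 of 7 melanosome proteins (*Slc24a5*, *Mcoln3* and *Mc1r*), 3 of 9 regulators (*Pax3*, *Tfap2a* and *Tfap2b*) and 2 of 5 receptors (*Kit* and *Mc1r*) were higher, and the transport gene *Mlph* was lower. *Slc24a5*, a melanosomal cation exchanger, stood at 176, 585 and 444 CPM in order of stage, and at 576 CPM at P0 without the 30 keratin-rich cells. In the melanocyte-like cells of E16.5 and the larger P0 group it stood at 653 and 1173 CPM. From E13.5 to P0, 4 of 9 melanosome proteins were higher (*Oca2*, *Slc24a5*, *Trpm1* and *Mc1r*), against 6.22% of all genes. Lower were 4 of 12 genes of dividing cells, against 8.88% of all genes.

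Outside the lists, the highest differences between pigment cells and other cells belonged at every stage to *Ptgds*, which makes prostaglandin D2. Its log2 differences were 4.26, 7.65 and 7.04. *Syngr1* (3.51, 4.55 and 4.34) and *Bace2* (3.32, 3.90 and 3.62), whose protease cleaves PMEL, were among the highest 5 at each stage. *Mgll* and *Phlda1* completed the list at E13.5, *Npy* and *Phlda1* at E16.5, and *Npy* and *Gsta1* at P0.

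Between stages, of all genes other than the 7, the 5 highest from E13.5 to E16.5 were *Lgals7*, *Tm4sf1*, *Cpne4*, *Krt15* and *Ptgds* and the 5 lowest *Hbb-y*, *Hba-x*, *Ccl21a*, *Nnat* and *Crabp2*. From E16.5 to P0 the highest were *Ly6d*, *Krt79*, *Sostdc1*, *Hspa1a* and *Sox9*, and the lowest *Hbb-bt*, *Hba-a2*, *Hbb-bs*, *Hba-a1* and *Igf2*. From E13.5 to P0 they were *Lgals7*, *Krt17*, *Ly6d*, *Krt15* and *Fxyd3*, against *Hbb-y*, *Hbb-bt*, *Igf2*, *Crabp1* and *Hba-x*. The summed red cell genes were 22780 CPM, 12997 CPM and 813 CPM in pigment cells of the 3 stages and 15441, 3872 and 1326 CPM in other cells.

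Over the 28 groups of a class and a stage, the genes whose level ran most like the mean of the 6 genes other than *Mitf* were *Trpm1* (Pearson r = 0.971), *Alx1* (0.965), *Gpnmb* (0.963), *Mcoln3* (0.960) and *Ptgds* (0.953), with *Mitf* itself at 0.881. The genes most like *Mitf* were *Wdr95* (0.915), *Alx1* (0.889), *Slc26a7* (0.886), *Syngr1* (0.879) and *Mc1r* (0.878). The groups share libraries, and a few melanocyte-like or Schwann-like groups set these values, so they are a description. Without E13.5, over 18 groups, the first list read *Ptgds* (0.980), *Gsta1* (0.976), *Trpm1* (0.971), *Tspan10* (0.970) and *Car14* (0.968), and *Alx1* was in neither list.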

How the data were processed

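Single-cell suspensions of pooled back skin gave 1 library per stage (10x 3′ v2 chemistry). Per the methods, the authors aligned reads to mm10 and counted UMIs with Cell Ranger 2.2.0 (also named in the submitters' processing notes), and kept cells with at least 1750 genes and genes in at least 3 cells with Seurat. The values they deposited are the natural log of 1 plus the UMIs per 10000 of the cell. The formula was found from the values, all of which came back as whole UMIs (tolerance 0.001). The table holds 16235 cells, more than the study's text counts. Libraries held 53334740, 66239195 and 46599806 UMIs; 115 barcodes occur in more than 1 library.

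UMIs were summed per group of cells and stage. Sums have exact Poisson intervals, shares Clopper-Pearson intervals and ratios of sums conditional exact intervals, all at 95%. Libraries were clustered 1 at a time with scanpy 1.11.5 (2000 variable genes without the 7 genes, 30 principal components, 15 neighbours, Leiden resolution 1). Clusters were named from marker lists by the mean log2 difference over the 25th percentile of clusters, with at least 3 markers at 1 or more. 3 clusters were left unnamed after they had been seen. Doublets were called with Scrublet (expected rate 0.06) and kept. The caller marked 84 cells of E16.5, 106 of P0 and 0 of E13.5, where it was taken as not working. Gene lists past a fold use CPM plus 10. This comparison was tested on simulated counts built from these libraries: of 200 genes changed 4-fold, 100%, 99.5% and 98% were recovered for pigment against other cells of E13.5, E16.5 and P0, respectively. The changed genes were drawn from those expected well above the minimum of 20 UMIs, and the counts had Poisson error only. Recovery near the minimum, at smaller folds or with spread between cells was not tested.

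The members and all lists were chosen with earlier results of these data known. The text names the 7 genes, list genes past the fold or with a level compared, the 5 genes outside the lists highest in pigment cells at each stage, the 5 highest and 5 lowest of all other genes between stages, and 5 genes by correlation for each pattern. Alternatives changed the number of genes a pigment cell needs, the depth, the weight of a cell, doublets, clustering, naming and the pseudocount. Promoter sequences are from RefSeq (GRCm38.p6). Those of *Pmel*, *Mlana* and *Slc45a2* were not used here.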

Additional observations from a re-analysis of the deposited data

How the results depend on the processing

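No paired analysis was possible because each stage is 1 library. Requiring 2 of the 7 genes gave pigment cell shares of 1.96%, 1.42% and 4.24% at E13.5, E16.5 and P0, requiring 4 gave 0.570% at E13.5, and requiring 5, a choice made after seeing the data, 0.335%. Thinning gave 0.704% at E13.5, and cells with at least 2500 genes 3.94% at P0.

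The log2 fold of the summed set from E13.5 to E16.5, 0.76, was 1.16, 0.26 and 0.24 with at least 2, 4 and 5 genes, 0.50 with at least 2500 genes per cell, 0.95 without doublets, 0.23 in melanocyte-like or Schwann-like clusters and 1.09 with cells weighted alike. That from E16.5 to P0, 0.56, was 0.21, 0.72 and 0.71 with 2, 4 and 5 genes, 1.35 after thinning, 0.0406 (interval -0.01 to 0.09) with 2500 genes, 0.36 without doublets, 0.92 in those clusters, 1.27 with cells weighted alike and 0.94 without the 30 keratin-rich P0 cells (chosen after seeing the data).

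Between E16.5 and P0 the *Mitf* ratio to *Dct* was -1.67 after thinning, -1.06 with 2500 genes and -1.65 with cells weighted alike, and that of *Tyrp1* 2.07 after thinning and 5.22 without the top cell, on the log2 scale.

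*Tyr* changed sign in 4 cases. From E13.5 to E16.5, where its main value was 0.44, it was -0.0857 with at least 4 genes, -0.0172 with at least 5 and -0.0754 in melanocyte-like or Schwann-like clusters. From E16.5 to P0 it was 0.13 after thinning. No other value changed sign where its interval excluded 0. The larger P0 group on its own, where *Mitf* and *Tyr* were higher than in E16.5 melanocyte-like cells, was not one of these alternatives.

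The share of E13.5 pigment cells in melanocyte-like or Schwann-like clusters, 44.1%, was 18.6% at resolution 0.5, 0% at resolution 2 and 30.5% with 3000 variable genes, and at P0 the share of 83.9% was 59.7% at resolution 2 and 58.9% with 3000 variable genes.

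Genes past the fold numbered 193, 710 and 677 for pigment against other cells at E13.5, E16.5 and P0, and 403, 740 and 1214 for E16.5 over E13.5, P0 over E16.5 and P0 over E13.5. A pseudocount of 1 gave 1196 at P0 and 1440 and 2083 for the last 2 comparisons. At least 50 UMIs gave 99 and 395 for pigment cells of the embryonic stages, and 170, 449 and 755 between stages. Requiring 2 genes gave 107 at E13.5 and 361 at P0. The cause of these changes was not tested. Medians of 0 to 3 UMIs per cell limit the values of *Tyr*, *Slc45a2* and *Mitf*, and those of *Tyrp1* in the embryo.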
